A study of Oryzias latipes with 27 samples.

Results

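The genes gsdf (gonadal soma derived factor) and amh (anti-Müllerian hormone) encode secreted ligands of the TGF-beta family, and they were followed here by RNA-seq in the gonads of medaka, a small freshwater fish with XX females and XY males. They were taken by symbol and are 2 of the 26099 genes in the deposited tables. The symbol amhr2, the receptor of amh, was not used in the tables, and the row misrii, to which RefSeq gives the synonym AMHRII, was set beside them. The study compared 3 kinds of gonad at 10, 30 and 120 days post hatch (dph; D10, D30 and D120), with 3 libraries in each of the 9 groups. MT_Fe_Ov were ovaries of XY fish whose sex-determining gene DMY had been mutated with TALEN nucleases in a line kept over generations. The titles of these samples call the fish DMY knockout males, whereas their sex and tissue labels give female and ovary. WT_Fe_Ov were ovaries of wild-type XX females, and WT_Ma_Te were testes of wild-type XY males. At D10 the sample was the gonadal primordium with the tissue around it, without head and tail, and at D30 and D120 it was labelled as gonad. All fish were untreated, and whether a library came from 1 fish or a pool was not given in the sources used here.

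Gsdf is a TGF-beta ligand of fish, made by the somatic cells next to the germ cells, that is by Sertoli cells of the testis and granulosa cells of the ovary. In medaka it is known as an early male-side gene that acts after DMY in the XY gonad. Amh is made by the same supporting cells and acts through the receptor Amhr2, whose loss in medaka is known for excess germ cells and sex reversal of XY fish. Ligands of this family bind paired receptor kinases, which phosphorylate Smad proteins that then regulate genes in the nucleus, and secreted inhibitors can hold the ligands back.

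The row gsdf lies on chromosome 12 of the assembly ASM223467v1 from 10455047 to 10458695, and no other RefSeq gene overlapped it. The study measured gsdf by qPCR as well, and its primer pair is shown because it identifies the transcript assayed there. Both are written 5′ to 3′.
gsdf forward primer: ggtgtcacggacactacagc
gsdf reverse primer: attgtcccagcccagatctttc

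The symbol amh lies on chromosome 4 from 7984441 to 7987000 in RefSeq, a span of 2560 bases. The length used for its FPKM, recovered from the counts and the FPKM values, was 4442 bases, longer than the gene itself. Its row stood between pla2g7 and sf3b6, both on chromosome 24. There were 52 rows with a counted length above the RefSeq span, and 51 of them had more than 1 RefSeq locus under the symbol. Of 20 rows placed among genes of another chromosome, 19 did as well, and amh was the exception in both sets. The counts listed under amh may therefore hold reads of more than 1 locus, which cannot be told apart from these files, and every amh value below is that of the row. The row misrii lies on chromosome 7 from 14634571 to 14641197, with a counted length of 1675 bases inside a span of 6627 bases.

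The libraries held 5551651 to 17586392 counted read pairs. The smallest was WT_Ma_Te replicate 3 at D10, and the D30 MT_Fe_Ov libraries held 6301347 to 10129588. At D10 the summed FPKM of the 3 muscle genes found of 9 searched was 857 to 4049 in all groups, against 6.21 or less at D30 and D120. The oocyte list (4 genes found of 7) matched the labels at D30, with sums of 1430 to 1881 FPKM in MT_Fe_Ov, 1565 to 1626 in WT_Fe_Ov and 40.3 to 49.6 in WT_Ma_Te. The Sertoli cell list (6 found of 10) summed to 1.42 to 3.95 FPKM in MT_Fe_Ov, 3.39 to 4.1 in WT_Fe_Ov and 170 to 179 in WT_Ma_Te at D30. At D10 its ranges overlapped between the 3 gonads, at 26.4 to 34.2, 25.4 to 27.4 and 11.4 to 40.2 FPKM in the same order. The granulosa cell list (3 found of 7) did not match the labels at D30 as a sum. It summed to 2.82 to 10.5 FPKM in MT_Fe_Ov, 10.5 to 11.6 in WT_Fe_Ov and 97.2 to 105 in WT_Ma_Te. This list shares fshr and inha with the Sertoli cell list, and fshr averaged 82.8 FPKM in the D30 testes. The study's read and base totals give shorter read pairs for the D30 WT_Ma_Te libraries than for the others. Read length and gonad therefore cannot be told apart at D30, nor read length and stage in steps of the testes to or from D30. DMY and dmrt1 were not analysed here, and the genotypes rest on the labels.

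Values are given as FPKM, which is the read pairs of a gene scaled to its counted length and to the total of the library. At D10 gsdf was low in all gonads. MT_Fe_Ov libraries had 3.47, 3.74 and 2.59 FPKM, WT_Fe_Ov libraries had 1.86, 1.47 and 1.44 FPKM, and WT_Ma_Te libraries had 10.4, 12.9 and 2.90 FPKM. These rested on 36 to 283 counts a library, and WT_Ma_Te replicate 3 lay between the lowest and the highest MT_Fe_Ov library. At D30 gsdf stood at 18.9, 134 and 30.9 FPKM in MT_Fe_Ov, 61, 90.4 and 74.7 FPKM in WT_Fe_Ov, and 2008, 2244 and 2036 FPKM in WT_Ma_Te. No ovary library came near a testis library, and by mean FPKM gsdf ranked 1 among the 25080 genes with counts in the D30 testes. It took 0.480% of all counts there, against 0.0134% in MT_Fe_Ov and 0.0173% in WT_Fe_Ov. At D120 the values were 21.4, 20.5 and 23.1 FPKM in MT_Fe_Ov, 29.8, 27.4 and 24.1 FPKM in WT_Fe_Ov, and 280, 339 and 285 FPKM in WT_Ma_Te. The testes were again above every ovary, and gsdf ranked 162 of 24621 genes in them. In bulk tissue, fewer cells of a type and less RNA per cell cannot be told apart, so these levels are those of whole gonads.

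**Figure D1:**
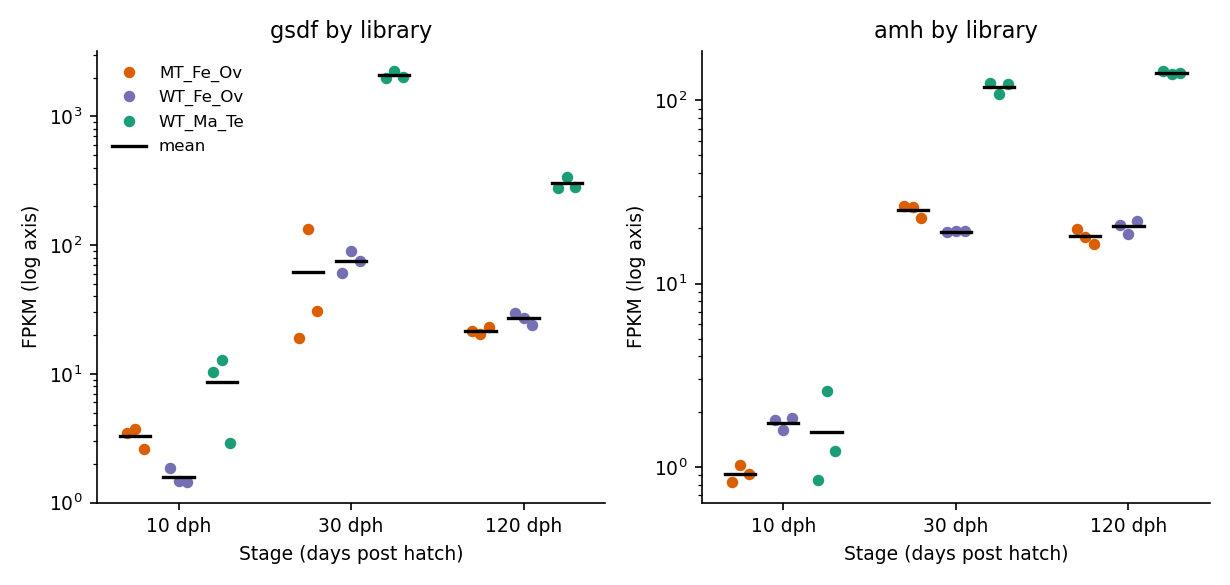
FPKM of gsdf (left) and amh (right) on log axes in each of the 27 libraries by stage, with points for libraries and bars for group means. The D30 testes reached 2008 to 2244 FPKM for gsdf, and the MT_Fe_Ov library at 134 FPKM stands above the other ovaries of that stage.

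The row amh spanned a narrower range. At D10 it had 0.824, 1.02 and 0.910 FPKM in MT_Fe_Ov, 1.80, 1.58 and 1.84 FPKM in WT_Fe_Ov, and 0.852, 2.58 and 1.22 FPKM in WT_Ma_Te, from 30 to 99 counts a library. MT_Fe_Ov lay below every WT_Fe_Ov library, and the testes spread across both. At D30 it had 26.4, 26.0 and 22.8 FPKM in MT_Fe_Ov, 19.0, 19.2 and 19.2 FPKM in WT_Fe_Ov, and 125, 109 and 122 FPKM in WT_Ma_Te. At D120 it had 19.7, 18.0 and 16.5 FPKM in MT_Fe_Ov, 21.0, 18.6 and 21.8 FPKM in WT_Fe_Ov, and 144, 140 and 141 FPKM in WT_Ma_Te. From D30 on the ovaries and the testes thus formed separate levels, and within a gonad the replicates were close. The row ranked 688 of 25080 genes in the D30 testes and 596 of 24621 in the D120 testes.

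Ordered by mean FPKM, gsdf was highest in D30 WT_Ma_Te (2096 ± 129, SD, n = 3 here and below), then D120 WT_Ma_Te (301 ± 33), D30 WT_Fe_Ov (75.4 ± 14.7), D30 MT_Fe_Ov (61.3 ± 63.4), D120 WT_Fe_Ov (27.1 ± 2.9), D120 MT_Fe_Ov (21.7 ± 1.3), D10 WT_Ma_Te (8.71 ± 5.18), D10 MT_Fe_Ov (3.27 ± 0.60) and D10 WT_Fe_Ov (1.59 ± 0.23). Neighbours were taken as apart where no library overlapped and the means differed by more than the larger SD. D30 MT_Fe_Ov was not apart from the group on either side, nor D10 WT_Ma_Te from D10 MT_Fe_Ov. The order of amh was D120 WT_Ma_Te (142 ± 2.1), D30 WT_Ma_Te (119 ± 8.7), D30 MT_Fe_Ov (25.1 ± 1.9), D120 WT_Fe_Ov (20.5 ± 1.6), D30 WT_Fe_Ov (19.2 ± 0.14), D120 MT_Fe_Ov (18.1 ± 1.6), D10 WT_Fe_Ov (1.74 ± 0.14), D10 WT_Ma_Te (1.55 ± 0.91) and D10 MT_Fe_Ov (0.919 ± 0.10). D30 WT_Fe_Ov was not apart from D120 WT_Fe_Ov or D120 MT_Fe_Ov, which stand on either side of it, and D10 WT_Ma_Te was not apart from the other two D10 groups. All other neighbours in this order of amh were apart. The highest place thus went to the D30 testis for gsdf and to the D120 testis for amh.

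Ovary and testis were compared within each stage with edgeR's quasi-likelihood test on the counts, and a gene was called where the adjusted p was 0.05 or less and the log2 fold change was 1 or more in either direction. Between libraries as unlike as these the scaling matters. The median log2 fold change over all genes, ovaries (both kinds, Fe_Ov) over testes, was −0.53 at D30 and −0.28 at D120 with TMM scaling, and −1.49 and −0.57 with library totals. For the pooled ovaries at D30 and D120 the fold change is therefore also given from that median. This distance moved by under 0.1 on the log2 scale between TMM and library totals for gsdf and amh at each stage. That follows from the scaling, which shifts all genes nearly alike.

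At D10 neither gene was called. The samples were not alike in other tissue. The pancreatic gene cpb1 stood at 30.1 to 382 FPKM in WT_Ma_Te, 386 to 760 in WT_Fe_Ov and 1078 to 1548 in MT_Fe_Ov. The summed liver genes of WT_Ma_Te (117 to 642 FPKM) lay below those of MT_Fe_Ov (660 to 1106) and overlapped those of WT_Fe_Ov (314 to 885). The summed muscle genes overlapped between the gonads. The part of such tissue in the fold changes was not tested. The log2 fold change of gsdf was −1.33 (SE 0.55) in MT_Fe_Ov over WT_Ma_Te with an adjusted p of 0.290, and −2.48 (SE 0.56) in WT_Fe_Ov over WT_Ma_Te with an adjusted p of 0.444, by edgeR. For all 6 ovaries over the 3 testes it was −1.79 (SE 0.48, adjusted p = 0.0902, edgeR). That of amh was −0.19 (SE 0.41, adjusted p = 0.812, edgeR), and 0.55 without WT_Ma_Te replicate 2. No gene was called lower in either single comparison (0% each), with 3990 and 1870 genes at an unadjusted p under 0.05 and 372 and 21 called lower by DESeq2. In the pooled comparison 0.0242% of genes were called lower, 6 of 24793, and 5412 had an unadjusted p under 0.05. The gsdf call at D10 turned on the fit. DESeq2 gave −1.82 with an adjusted p of 0.0107 and called 1467 genes in all. A single edgeR fit of all 27 libraries gave −1.87 with an adjusted p of 0.00435 and called 1650. Leaving out WT_Ma_Te replicate 1 also took gsdf past the threshold, at −1.70 (SE 0.55) and an adjusted p of 0.0447 by edgeR. That fit called 3907 genes in all, against 63 with all libraries, while the gsdf fold change was no larger and its SE was wider.

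At D30 both genes were lower in the ovaries. By mean FPKM gsdf was 34.2-fold lower in MT_Fe_Ov and 27.8-fold lower in WT_Fe_Ov than in WT_Ma_Te, and amh was 4.72-fold and 6.18-fold lower in the same pairs. The edgeR log2 fold changes of gsdf were −4.23 (SE 0.69, adjusted p = 0.000632) for MT_Fe_Ov over WT_Ma_Te and −3.85 (SE 0.11, adjusted p = 1.4e-16) for WT_Fe_Ov over WT_Ma_Te. Those of amh were −1.37 (SE 0.13, adjusted p = 3.0e-05, edgeR) and −1.67 (SE 0.08, adjusted p = 1.1e-13, edgeR). In these comparisons 33.5% and 35.6% of all genes tested were also called lower, so a call at D30 was common. Pooling the ovaries, gsdf stood 3.46 and amh 0.91 log2 units below the median gene, and 36.5% of genes were called lower. From the lowest fold change up, gsdf ranked 2389 and amh 9334 of 25349 genes. With library totals the pooled fold changes were −4.94 for gsdf and −2.42 for amh. The D30 testes also stood apart in the Sertoli cell list given above, and the part of cell composition in these fold changes was not tested.

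At D120 both were again lower in the ovaries, and by nearer amounts. By mean FPKM gsdf was 13.9-fold lower in MT_Fe_Ov and 11.1-fold lower in WT_Fe_Ov than in WT_Ma_Te, and amh was 7.83-fold and 6.91-fold lower. By edgeR the log2 fold changes of gsdf were −3.43 (SE 0.11, adjusted p = 7.1e-10) for MT_Fe_Ov and −3.15 (SE 0.14, adjusted p = 6.7e-09) for WT_Fe_Ov over WT_Ma_Te. Those of amh were −2.60 (SE 0.10, adjusted p = 2.4e-09, edgeR) and −2.46 (SE 0.12, adjusted p = 1.7e-08, edgeR). Of all genes 30.1% and 29.6% were called lower in these comparisons. With the ovaries pooled, where 32% of genes were called lower, gsdf stood 3.03 and amh 2.27 log2 units below the median gene, at ranks 2853 and 4264 of 25105. The Sertoli cell list summed to 21.9 to 28.2 FPKM in MT_Fe_Ov, 20.4 to 24.0 in WT_Fe_Ov and 61.4 to 74.9 in WT_Ma_Te.

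**Figure D2:**
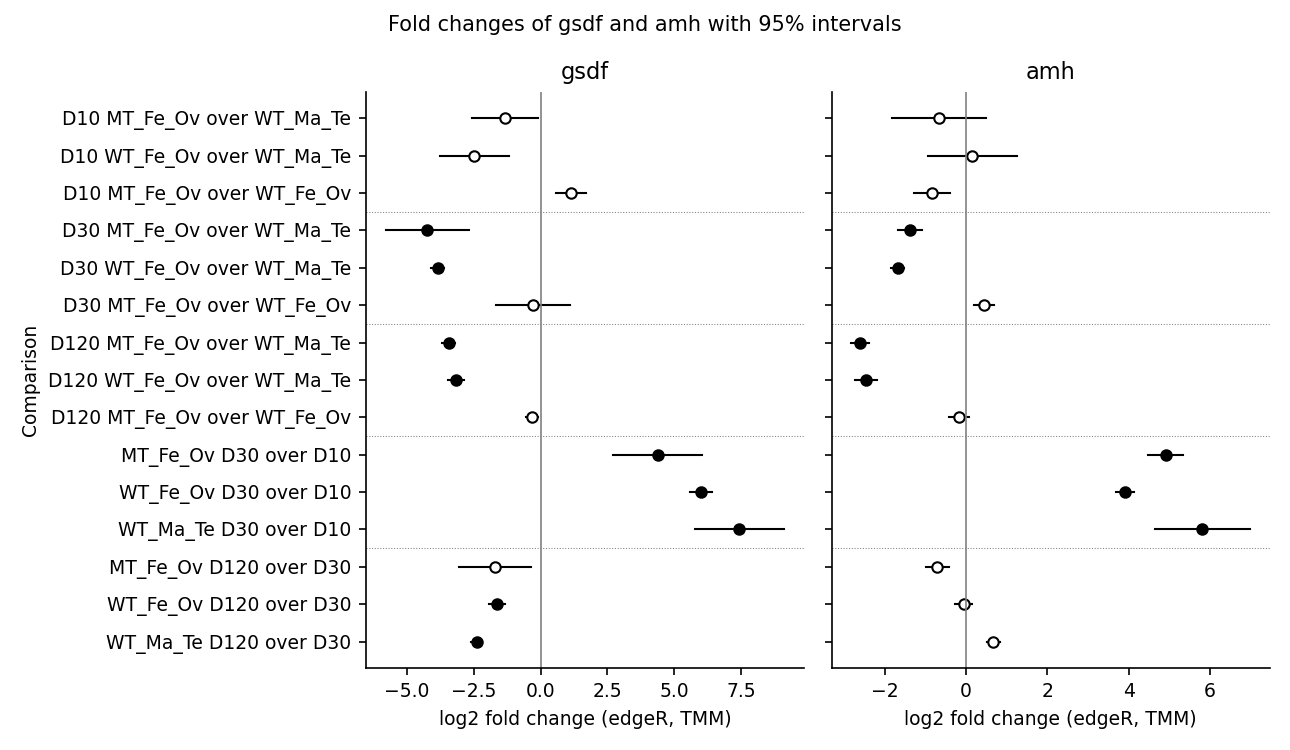
Log2 fold changes of gsdf (left) and amh (right) with 95% intervals from edgeR for the comparisons within a stage (upper 9 rows) and between stages (lower 6 rows), filled where called. No D10 comparison is filled, and the D30 intervals of gsdf are wide wherever MT_Fe_Ov takes part, for example −5.79 to −2.67 over WT_Ma_Te.

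The XY ovaries of the mutant line were also set against the wild-type XX ovaries. Sex chromosomes and line differ here too, so the effect of the DMY mutation alone cannot be read from this contrast. The comparison within XY fish is that of MT_Fe_Ov with WT_Ma_Te, given above. Between the ovaries none of the 3 stages gave a call for gsdf or amh. At D10 the 3 MT_Fe_Ov libraries lay above the 3 WT_Fe_Ov libraries for gsdf and below them for amh. By edgeR the log2 fold changes were 1.13 (SE 0.24, adjusted p = 0.0738) for gsdf and −0.84 (SE 0.19, adjusted p = 0.0813) for amh, where 0.374% of genes were called. For gsdf the threshold was passed with DESeq2 (1.15, adjusted p = 0.00539) and without MT_Fe_Ov replicate 3 (1.30, adjusted p = 0.0450, edgeR). These 2 fits called 415 and 195 genes in all, against 92 by edgeR with all libraries. Of other tissue, the summed muscle genes (3 found of 9) overlapped, at 1166 to 1322 FPKM in MT_Fe_Ov and 1165 to 1810 FPKM in WT_Fe_Ov. The summed liver genes (3 found of 9) did too, at 660 to 1106 and 314 to 885 FPKM. The pancreatic gene cpb1, the 1 marker found of 7, stood at 1078 to 1548 FPKM in MT_Fe_Ov and 386 to 760 FPKM in WT_Fe_Ov. It was not called (1.15, SE 0.28, adjusted p = 0.0951, edgeR), and its part in the gsdf and amh values was not tested. At D120 the log2 fold changes were −0.32 (95% interval −0.56 to −0.08, adjusted p = 0.537, edgeR) for gsdf and −0.17 (−0.42 to 0.07, adjusted p = 0.860, edgeR) for amh, with 0.104% of genes called.

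At D30 the gsdf levels of MT_Fe_Ov split. Replicate 2, at 134 FPKM, was above every WT_Fe_Ov library, and replicates 1 and 3, at 18.9 and 30.9 FPKM, were below every one. The edgeR log2 fold change over WT_Fe_Ov was −0.28 with a 95% interval of −1.68 to 1.12 and an adjusted p of 0.819, where 1.68% of genes were called. Without replicate 2 it was −1.48 (SE 0.23, adjusted p = 0.00935, edgeR), and without replicate 1 it was 0.14 (SE 0.52, adjusted p = 0.906, edgeR). The direction therefore rested on which XY ovaries were counted. The fit without replicate 2 called 1078 genes in all, against 401 with all libraries. For amh no such split was seen, since the 3 MT_Fe_Ov libraries all exceeded the 3 WT_Fe_Ov libraries by a little, with a log2 fold change of 0.45 (SE 0.10, adjusted p = 0.0651, edgeR). A pancreatic marker and a steroidogenic cell marker also differed between these ovaries. The pancreatic gene cpb1 stood at 0.263 to 2.48 FPKM in MT_Fe_Ov and 75.6 to 132 FPKM in WT_Fe_Ov (log2 fold change −6.63, SE 0.54, adjusted p = 0.00420, edgeR), and star, the 1 steroidogenic cell marker found of 5, at 0 to 0.160 and 0.874 to 1.35 FPKM (−3.40, SE 0.65, adjusted p = 0.0385, edgeR). The steroid enzyme rows 3bhsd and cyp17, outside the spellings searched for that list, were not called. Their log2 fold changes were 0.59 (SE 0.73, adjusted p = 0.679, edgeR) and −1.53 (SE 0.50, adjusted p = 0.144, edgeR). The part of such differences in the D30 values of these ovaries was not tested.

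The same library was high for some other genes of somatic cells and not for others. The row LOC101174651, which RefSeq lists with the synonym of gonadal aromatase, the enzyme of estrogen synthesis, had 2.16, 33.6 and 5.32 FPKM in MT_Fe_Ov replicates 1 to 3, and 4.74, 8.14 and 5.06 FPKM in WT_Fe_Ov. The granulosa gene foxl2 had 2.31, 8.6 and 3.89 FPKM in MT_Fe_Ov, and 8.80, 8.37 and 9.56 FPKM in WT_Fe_Ov. The supporting-cell gene wt1, a row with more than 1 RefSeq locus, had 3.88, 16.5 and 3.27 FPKM in MT_Fe_Ov, and 5.23, 6.52 and 5.83 FPKM in WT_Fe_Ov. Replicate 2 thus held the most of the 3 MT_Fe_Ov libraries for each of these genes, and for 3bhsd, a steroid enzyme, with 0.641, 5.21 and 0.664 FPKM, although its foxl2 level lay within the WT_Fe_Ov range. Other genes did not follow. The Sertoli cell gene sox9 had 0.609, 0.629 and 0.650 FPKM in the 3 MT_Fe_Ov libraries, the receptor row misrii was highest in replicate 3, with 1.04, 1.54 and 2.65 FPKM, and amh had 26.4, 26.0 and 22.8 FPKM. The sox9 values rested on only 7, 8 and 12 counts and those of misrii on 11, 18 and 45, so both carry counting error. Over the 22 genes found of the male and female somatic lists described further on, replicate 2 was the highest MT_Fe_Ov library for 14, replicate 3 for 5 and replicate 1 for 3, and replicate 2 exceeded all 3 WT_Fe_Ov libraries for 10. The share over all genes is not given here, so these counts do not set somatic genes apart from other genes. The genes named here were chosen after their values were seen, and what part the makeup of the samples had was not tested.

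**Figure D3:**
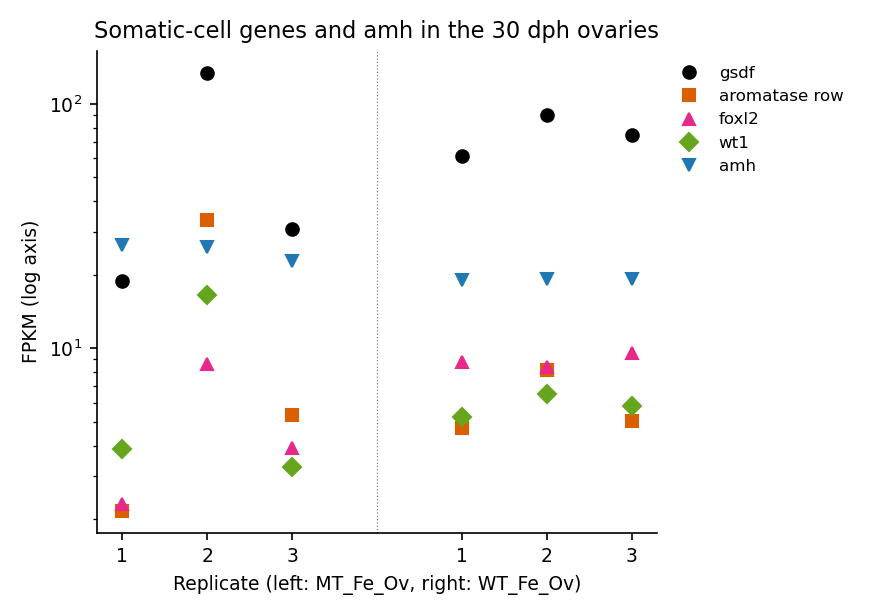
FPKM on a log axis of gsdf, LOC101174651 (the aromatase row), foxl2, wt1 and amh in the 3 MT_Fe_Ov (left) and 3 WT_Fe_Ov (right) libraries of D30. In MT_Fe_Ov replicate 2 gsdf reached 134 FPKM and the aromatase row 33.6 FPKM, while amh stayed between 22.8 and 26.4 FPKM in all MT_Fe_Ov libraries.

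Between stages both genes were called higher at D30 than at D10 in every gonad, a step that also moved from primordium with surrounding tissue to gonad. In the testes the read length changed over this step too. For gsdf the edgeR log2 fold changes, D30 over D10, were 4.38 (SE 0.73, adjusted p = 0.000614) in MT_Fe_Ov, 6.02 (SE 0.18, adjusted p = 3.3e-09) in WT_Fe_Ov and 7.44 (SE 0.73, adjusted p = 0.000109) in WT_Ma_Te. Those of amh were 4.91 (SE 0.19), 3.91 (SE 0.10) and 5.81 (SE 0.51) in the same order, all with an adjusted p of at most 6.6e-05 by edgeR. In these steps 23.7%, 29% and 23% of all genes were called higher. The germ cell list (8 found of 8) also differed, at 7.72 to 10.9, 9.74 to 24.7 and 3.41 to 8.94 FPKM at D10, against 649 to 812, 700 to 728 and 1324 to 1335 FPKM at D30 in the same gonads.

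After D30 the genes parted. In the testes gsdf fell to 301 FPKM at D120, a log2 fold change of −2.38 (SE 0.09, adjusted p = 5.0e-10, edgeR), where 21.3% of genes were called lower. Read length also changed over this step in the testes, and its part was not tested. In WT_Fe_Ov it also fell, by 1.63 on the log2 scale (SE 0.13, adjusted p = 4.5e-06, edgeR), where 8.86% of genes were called lower. The MT_Fe_Ov value was −1.72 (SE 0.59, adjusted p = 0.0585, edgeR), where 8.75% of genes were called lower, and −0.46 without the high library, D30 replicate 2. The 1 fit of 27 libraries called it, at −1.71 with an adjusted p of 0.00599. The row amh was called in no gonad over this step. Its log2 fold changes were −0.70 (SE 0.13, adjusted p = 0.00346) in MT_Fe_Ov, −0.05 (SE 0.10, adjusted p = 0.682) in WT_Fe_Ov and 0.67 (SE 0.07, adjusted p = 4.5e-06) in WT_Ma_Te by edgeR, so the first and the last passed the p threshold and not that of the fold change. The size of the testis value depends on scaling, and by mean FPKM amh rose only 1.19-fold there. The median log2 fold change over all genes in this testis step was −0.11 with TMM and −0.52 with library totals. In the testes the Sertoli cell list summed to 170 to 179 FPKM at D30 and to 61.4 to 74.9 FPKM at D120, and the sperm flagellum list (5 found of 6) to 132 to 153 and 594 to 684 FPKM.

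Whether the ovary and testis contrast itself differed between stages was tested as an interaction in 1 edgeR fit of all 27 libraries. The D10 samples also held surrounding tissue, so stage and tissue cannot be told apart in changes from D10. The D30 testes had shorter read pairs, so stage and read length cannot be told apart in any change of ovary over testis here. From D10 to D30 the log2 fold change of ovary over testis fell by 2.15 for gsdf (SE 0.58, adjusted p = 0.00277) and by 1.32 for amh (SE 0.30, adjusted p = 0.00056), where 31.5% of genes were called lower. Over all genes the median of this D10 to D30 change was −0.60 with TMM and −1.38 with library totals. From the lowest change up, gsdf ranked 7545 and amh 10145 of 25601 genes. Without WT_Ma_Te replicate 1 of D10 the amh value was −0.97, under the fold threshold. From D30 to D120 it fell by 1.07 for amh (SE 0.27, adjusted p = 0.00206, edgeR), where 17.6% of genes were called lower. The median of this change over all genes was 0.19 with TMM and 0.78 with library totals. With library totals the amh value was −0.44 (adjusted p = 0.142, edgeR), and without MT_Fe_Ov replicate 1 of D10 or WT_Fe_Ov replicate 2 of D120 it was −0.97 or −0.88, under the fold threshold. For gsdf the D120 minus D30 difference was 0.70 (SE 0.55, adjusted p = 0.324, edgeR), with a 95% interval of −0.43 to 1.83. Without MT_Fe_Ov replicate 2 of D30 it was 1.32 (adjusted p = 0.00697, edgeR), and with library totals it was 1.31 (adjusted p = 0.0494, edgeR). The same fit was used, after the data were seen, to ask whether the contrast of MT_Fe_Ov and WT_Fe_Ov differed between stages. For amh, which was lower in MT_Fe_Ov libraries at D10 and higher at D30, the change from D10 to D30 was 1.28 (SE 0.34, adjusted p = 0.0438, edgeR), where 0.937% of genes were called higher. It was called in only 4 of the 27 fits that each left out 1 library, and lay between 0.96 and 1.37 over them.

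The ratio of gsdf to amh within a library does not depend on how libraries are scaled to each other. At D30 it was 0.718, 5.15 and 1.35 in MT_Fe_Ov, 3.21, 4.70 and 3.88 in WT_Fe_Ov, and 16.1, 20.7 and 16.7 in WT_Ma_Te. At D120 it was 1.09, 1.14 and 1.40 in MT_Fe_Ov, 1.42, 1.47 and 1.10 in WT_Fe_Ov, and 1.95, 2.43 and 2.02 in WT_Ma_Te. The testes exceeded every ovary at both stages. The geometric mean over the 6 ovaries was 2.58 at D30, 6.87-fold lower than the 17.7 of the testes, and 1.26 at D120, 1.69-fold lower than the 2.12 of the testes. An exact permutation test over the 9 libraries, two-sided, gave p = 0.0119 at each stage, the smallest it can give, and 0.0714 after Benjamini-Hochberg adjustment over the 12 ratio comparisons. At D10 it was 4.21, 3.65 and 2.85 in MT_Fe_Ov, 1.03, 0.928 and 0.781 in WT_Fe_Ov, and 12.2, 4.99 and 2.39 in WT_Ma_Te. Here the geometric mean of the XY ovaries was nearer to that of the testes than to that of the XX ovaries. It was 3.89-fold above WT_Fe_Ov with no overlap. The exact permutation p of 0.1 is the smallest that 3 against 3 libraries allow, and it was 0.161 after adjustment. The D10 ratios rested on 36 to 283 gsdf counts and 30 to 99 amh counts a library. The samples also held surrounding tissue that differed in cpb1, as given above, and its part was not tested. Over stages the testis ratio had a geometric mean of 5.25 (D10), 17.7 (D30) and 2.12 (D120), and 3 against 3 libraries could again not pass a threshold of 0.05.

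**Figure D4:**
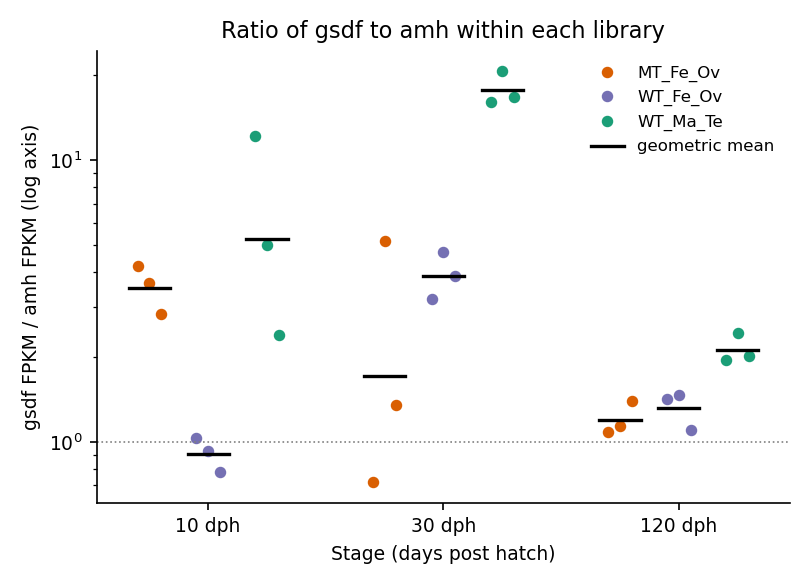
Ratio of gsdf FPKM to amh FPKM in each library on a log axis by stage, with geometric means as bars and a dotted line at 1. The D30 testes lie between 16.1 and 20.7, and at D10 the MT_Fe_Ov libraries (2.85 to 4.21) lie above the WT_Fe_Ov libraries (0.781 to 1.03).

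The receptor row misrii followed the testis as well. At D10 no library had more than 5 counts, and no fold change is given for that stage. At D30 it had 1.04, 1.54 and 2.65 FPKM in MT_Fe_Ov, 3.00, 4.22 and 2.89 FPKM in WT_Fe_Ov, and 122, 110 and 107 FPKM in WT_Ma_Te. At D120 it had 0.812, 0.543 and 0.979 FPKM in MT_Fe_Ov, 0.650, 0.643 and 1.10 FPKM in WT_Fe_Ov, and 6.39, 7.84 and 5.21 FPKM in WT_Ma_Te, from 11 to 21 counts in each ovary. The testes were above all ovaries at both stages. The edgeR log2 fold changes of all ovaries over testes were −4.44 (SE 0.26, adjusted p = 1.3e-08) at D30 and −2.71 (SE 0.27, adjusted p = 6.6e-07) at D120, 3.9 and 2.43 log2 units below the median gene. The change of this contrast from D30 to D120 was 1.86 (SE 0.41, adjusted p = 0.000498, edgeR), where 21.4% of genes were called higher. In the testes misrii fell by 3.71 on the log2 scale from D30 to D120 (SE 0.14, adjusted p = 3.5e-10, edgeR), while its ligand row amh was not called. Between MT_Fe_Ov and WT_Fe_Ov it was not called, with −0.85 (SE 0.38, adjusted p = 0.267, edgeR) at D30 and −0.03 (SE 0.43, adjusted p = 0.996, edgeR) at D120.

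Of the other receptors and Smads, 14 genes were found for 42 spellings searched. With all ovaries over testes 2 were called higher and 7 lower at D30, where 22% and 36.5% of all genes were, with a median log2 fold change of −1.12 against −0.53 over all genes, and 2 higher and 5 lower at D120, where 23.8% and 32% were, with a median of −0.20 against −0.28. At D30 the co-receptor gene tgfbr3 averaged 0.334 ± 0.171 FPKM in ovaries (SD, n = 6 here and below) and 7.54 ± 0.83 FPKM in testes (n = 3), and smad1, a transducer of BMP-type signals, 0.575 ± 0.215 and 12.9 ± 0.62 FPKM. The receptor gene acvr1c averaged 0.426 ± 0.757 FPKM in ovaries and 5.75 ± 1.32 FPKM in testes, and the ovaries spread between 0 and 1.96 FPKM. The 2 called higher at D30 were the receptor gene acvr1 and the inhibitory smad7. With library totals 0 of the 14 were called higher, where 2503 of all 25349 genes were. At D120 smad7 averaged 13.2 ± 1.6 FPKM in ovaries and 2.10 ± 0.41 FPKM in testes, while tgfbr3 had 0.391 ± 0.135 and 2.83 ± 0.32 FPKM and smad3 1.92 ± 0.57 and 10.5 ± 0.52 FPKM. Between MT_Fe_Ov and WT_Fe_Ov at D30, 4 of the 14 were called higher and 0 lower, where 0.801% of all genes were called higher. They were bmpr2 (1.71, SE 0.23, adjusted p = 0.0127), smad2 (1.53, SE 0.28, adjusted p = 0.0342), acvr2a (1.36, SE 0.22, adjusted p = 0.0251) and tgfbr2 (1.04, SE 0.19, adjusted p = 0.0346), as edgeR log2 fold changes, and they were named after their values were seen. In the same comparison cpb1 and star were called lower, as given above, and what part the makeup of the samples had in the 4 calls was not tested. The part of the lower share of pairs counted in these MT_Fe_Ov libraries was not tested either. When 1 library was left out, the number of genes called in this comparison lay between 0 and 1078, against 401 with all libraries.

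Among the other ligands 8 genes were found for 24 spellings. At D30 1 was higher and 6 lower in ovaries, where 22% and 36.5% of all genes were, with a median log2 fold change of −3.11 against −0.53 over all genes. The oocyte ligand bmp15 averaged 318 ± 14 FPKM in ovaries and 4.58 ± 1.18 FPKM in testes, and inha, the alpha subunit of inhibin, 0.142 ± 0.109 and 18.3 ± 1.6 FPKM. The ligand gene bmp6 had 0.173 ± 0.067 FPKM in ovaries and 6.13 ± 0.53 FPKM in testes. At D120 3 were called higher and 0 lower by edgeR, where 23.8% and 32% of all genes were, with a median of 0.27 against −0.28. These were bmp15 (270 ± 11 FPKM in ovaries and 0.571 ± 0.108 FPKM in testes), inhbb, an inhibin and activin subunit (4.46 ± 0.62 and 0.274 ± 0.154 FPKM), and bmp4 (3.09 ± 1.04 and 1.28 ± 0.10 FPKM). At an unadjusted p under 0.05 by edgeR, 3 of the 8 were higher and 3 lower, where 18333 of all 25105 genes passed. Of the lower ones, inha (−0.92, adjusted p = 0.00186) and tgfb3 (−0.91, adjusted p = 0.000142) missed the fold threshold. The third, bmp2 (−1.22, adjusted p = 0.0516), missed that of p. With library totals 4 of the 8 were called lower at D120, where 9304 of all 25105 genes were.

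Of the extracellular inhibitors, 6 found for 18 spellings, 1 was higher and 3 were lower in ovaries at each of D30 and D120. Over all genes 22% were called higher and 36.5% lower at D30, and 23.8% and 32% at D120, so these counts were near the background. The gene bambi, a decoy receptor, averaged 43.3 ± 10.8 FPKM in ovaries and 28.8 ± 0.61 FPKM in testes at D30, and 28.2 ± 3.3 and 8.07 ± 0.17 FPKM at D120. With library totals it was not called at D30. The BMP antagonist gene grem1 had at most 1 count in each D30 ovary, against 15 to 33 counts and 0.806 ± 0.287 FPKM in the testes. Follistatin, fst, which binds activins, had at most 2 counts in each D120 ovary and 0.824 ± 0.082 FPKM in testes. The target genes id2 and id3, both found of 6 spellings, went apart at D30. There id3 averaged 7.14 ± 2.46 FPKM in ovaries and 68.3 ± 3.6 FPKM in testes and was called lower, and id2 averaged 57.6 ± 12.3 and 29.7 ± 3.4 FPKM and was called higher, as it was at D120 with 53.7 ± 4.8 and 8.10 ± 2.07 FPKM.

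Of the male somatic list, 13 genes found for 30 spellings, 11 were lower and 0 higher in ovaries at D30, where 36.5% of all genes were lower, and the median log2 fold change was −2.33 against −0.53 over all genes. The other two were emx2 at 0.65 (SE 0.37) and sox8 at −0.09 (SE 0.44), neither of them called by edgeR. The steroid enzyme gene cyp11b averaged 0.0506 ± 0.0663 FPKM in ovaries and 37.8 ± 2.1 FPKM in testes, the Sertoli cell signal dhh 0.0649 ± 0.0553 and 23.2 ± 2.2 FPKM, and the transcription factor sox9 0.685 ± 0.113 and 36.7 ± 3.8 FPKM. At D120 5 were lower and 2, emx2 and sox8, higher, where 32% and 23.8% of all genes were, with a median of −0.10 against −0.28, and cyp11b had 0.0632 ± 0.0475 and 24.2 ± 3.0 FPKM, dhh 0.802 ± 0.306 and 14.9 ± 2.3 FPKM and sox9 0.220 ± 0.031 and 5.28 ± 1.17 FPKM. Of the female somatic list, 9 found for 18 spellings, 2 were higher and 5 lower in ovaries at D30, where 22% and 36.5% of all genes were, with a median of −1.79 against −0.53. The estrogen enzyme gene hsd17b1 averaged 11.8 ± 2.6 FPKM in ovaries and 0.118 ± 0.067 FPKM in testes, whereas fshr, the receptor of follicle-stimulating hormone, had 1.41 ± 0.63 and 82.8 ± 3.2 FPKM, and wnt4b at most 1 count in each ovary and 0.555 ± 0.014 FPKM in testes. At D120 3 were higher and 3 lower, where 23.8% and 32% of all genes were, with foxl2 at 21.4 ± 4.9 FPKM in ovaries and at most 1 count in each testis, hsd17b1 at 23.4 ± 4.7 and 0.125 ± 0.117 FPKM, and wnt4b at 0.0252 ± 0.0232 and 1.76 ± 0.11 FPKM. Over the 52 genes of the 6 lists edgeR called 0 at D10 with all ovaries over testes, where 7 had an unadjusted p under 0.05 and DESeq2 called 3. Over all 24793 genes the same counts were 63, 5412 and 1467. Between MT_Fe_Ov and WT_Fe_Ov edgeR called 0 at D10, where 6 had an unadjusted p under 0.05 and DESeq2 called 2, and 0 at D120, where 1 had an unadjusted p under 0.05 and DESeq2 called 0. Over all genes these counts were 92, 4638 and 415 of 24605 at D10, and 25, 1693 and 121 of 24122 at D120. Calls were thus rare over all genes too, and the counts of 0 do not set the lists apart.

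**Figure D5:**
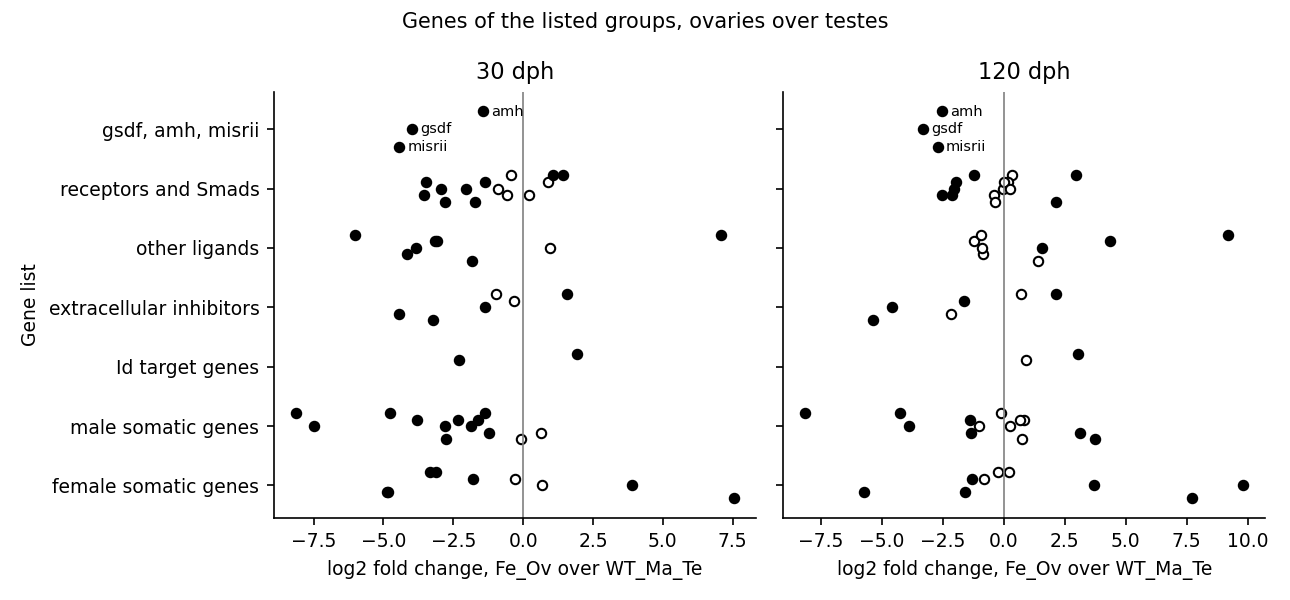
Log2 fold changes of all ovaries over testes at D30 (left) and D120 (right) from edgeR for gsdf, amh, misrii and the genes found of 6 lists, 1 point a gene, filled where called. All 3 genes of the top row are filled at both stages, and the other ligands lie mostly below 0 at D30 (6 lower, 1 higher) and partly above it at D120 (3 higher).

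The genes whose pattern was most like gsdf were taken by Pearson's r of log2(FPKM + 1) over the 27 libraries, among 18320 genes with a mean FPKM of at least 1. They were cnot9 (r = 0.964), wdr70, nsmce1, esr2, tsn, LOC101159430, gins4, fig4, ing4 and mzt1 (r = 0.945), all highest in the D30 testes. Among them esr2 encodes an estrogen receptor and has more than 1 RefSeq locus. The 10 nearest to amh were LOC101167937 (r = 0.989), gemin2, cntd1, LOC101167791, dazl, rbm46, cdk2, nusap1, LOC101157781 and LOC111948027 (r = 0.983), of which dazl encodes an RNA-binding protein of germ cells and cdk2 a cell cycle kinase. No gene was on both lists. The pair gsdf and amh had r = 0.911, which placed amh 88th for gsdf and gsdf 555th for amh, and gsdf and misrii had r = 0.923, at place 50. These libraries share stages and gonads, so the values describe likeness over 9 groups, and with Spearman's correlation only 2 of the 10 nearest to gsdf and 1 of the 10 nearest to amh were shared.

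Reads were counted without regard to strand, so the neighbours of gsdf were looked at. LOC105355224 ends 167 bases before gsdf and averaged 3.07 FPKM in MT_Fe_Ov, 2.43 FPKM in WT_Fe_Ov and 43.1 FPKM in WT_Ma_Te at D30, with r = 0.877 to gsdf over the 27 libraries. LOC101170112 starts 9527 bases after gsdf and averaged 0.05, 0.112 and 10.1 FPKM in the same groups. Both were thus highest in the D30 testes, at levels far under that of gsdf. The RefSeq neighbours of amh on chromosome 4, LOC101166463 and dot1l, went the other way over the libraries, with r of −0.730 and −0.721. Genes of chromosome 24, among which the row amh stood, were not looked at, so reads from there are not covered.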

How the data were processed

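Poly(A) RNA of 27 medaka gonad samples was sequenced as read pairs on HiSeq 2000. The authors trimmed reads with fastp, aligned them with STAR to ASM223467v1 and counted read pairs per gene over exons with featureCounts, without strand, and deposited these counts unnormalized. The deposited FPKM values are the authors' own scaling, recovered here as count divided by library total and counted length within 0.0001 percent. Libraries held 5551651 to 17586392 counts, and low genes carry counting error.

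Groups came from the labels, which call the replicates biological replicates, so p-values measure the spread between these samples. Counts were tested with edgeR 4.0.16 (R 4.3.3), TMM scaling, quasi-likelihood fits of the groups compared, genes with 1 or more counts in total, and Benjamini-Hochberg adjustment over all genes tested. Ovaries of both kinds were also pooled (6 libraries a stage), and changes between stages were tested in 1 fit of all 27 libraries. Ratios of gsdf to amh were compared with exact permutation tests. Intervals are 95%.

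Named were gsdf, amh and misrii, up to 3 list genes called in all ovaries over testes at D30 or D120, with the largest changes and no overlap of libraries, and the 10 genes most alike. Members and lists were chosen with earlier results of these data known. RefSeq held 26090 of the 26099 symbols. Alternatives were DESeq2 1.42.0 (the tool of the study) and its size factors, library totals, filterByExpr, an adjusted p of 0.01, 1 fit of all libraries, a replicate block and leaving out each library. The statistics were tested on simulated data. Over 15 pairs of groups, 0 had same-numbered libraries that deviated together for every number, so the numbers were not taken as pairs. No libraries were duplicates, with a smallest chi-square per degree of freedom of 2.49 between replicates. DMY, dmrt1 and the small RNA data were not analysed here. The values of 1 gene counted in the lists are not reported here.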

Additional observations from a re-analysis of the deposited data

Results flagged for a closer look

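The contrast between gonads differed between stages by a test of the difference itself, in 1 edgeR fit of 27 libraries, for 5 results. The log2 fold change of ovary over testis changed from D10 to D30 by −2.15 for gsdf and by −1.32 for amh. Over all genes 31.5% were called lower in this step, and the median change was −0.60 with TMM. The tissue taken changed over this step as well. The D30 testes had shorter read pairs than the other libraries, so stage and read length cannot be told apart in any change of ovary over testis here. From D30 to D120 the ovary over testis value changed by −1.07 for amh and by 1.86 for misrii. Over all genes 17.6% were called lower and 21.4% higher in this step, so such calls were common. This amh change was not called with library totals, where the median over all genes was 0.78 against 0.19 with TMM. The amh change lay between −1.10 and −0.88 with 1 library left out. The log2 fold change of MT_Fe_Ov over WT_Fe_Ov for amh changed by 1.28 from D10 to D30 (SE 0.34, adjusted p = 0.0438, edgeR), where 0.937% of genes were called higher. This last comparison was added after seeing the data, and it was called in 4 of the 27 fits that left out 1 library. For gsdf the same change was −1.40 (SE 0.69, adjusted p = 0.311, edgeR), and −2.63 (adjusted p = 0.00796, edgeR) without MT_Fe_Ov replicate 2 of D30.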

How the results depend on the processing

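At D30 and D120 the calls of gsdf and amh in ovary over testis held in every alternative and with any 1 library left out. Other results of gsdf moved with the tool. In 1 fit of 27 libraries gsdf was called at D10 in all ovaries over testes (−1.87) and in WT_Fe_Ov over WT_Ma_Te (−2.43), and in MT_Fe_Ov at D120 over D30 (−1.71). DESeq2 called it at D10 in the first 2 (−1.82 and −2.50) and in MT_Fe_Ov over WT_Fe_Ov (1.15). With library totals the D120 minus D30 change of ovary over testis was 1.31 for gsdf, now called, and −0.44 for amh, no longer called. The median of this change over all genes was 0.19 with TMM and 0.78 with library totals, so all genes moved between these scalings. With library totals amh in WT_Fe_Ov at D120 over D30 was 0.10. With the replicate block the MT_Fe_Ov over WT_Fe_Ov change from D30 to D120 was 0.12 for gsdf, and that of amh from D10 to D30 was 1.28 (adjusted p = 0.0547, edgeR). The causes were not tested.

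Leaving out 1 library gave these ranges. For gsdf they were −2.23 to −1.29 (D10 ovaries over testes), 1.04 to 1.30 and −1.48 to 0.14 (MT_Fe_Ov over WT_Fe_Ov at D10 and D30), −2.14 to −0.46 (MT_Fe_Ov, D120 over D30), 0.49 to 1.32 (ovary over testis, D120 minus D30), and −2.63 to −0.97 and −0.48 to 1.18 (MT_Fe_Ov over WT_Fe_Ov, D30 minus D10 and D120 minus D30). For amh at D10 they were −0.51 to 0.55 (ovaries over testes), −0.98 to 0.079 (MT_Fe_Ov over WT_Ma_Te) and −0.17 to 0.88 (WT_Fe_Ov over WT_Ma_Te). For amh between stages they were −2.02 to −0.97 and −1.10 to −0.88 (ovary over testis, D30 minus D10 and D120 minus D30), 0.96 to 1.37 (MT_Fe_Ov over WT_Fe_Ov, D30 minus D10) and −0.14 to 0.036 (WT_Fe_Ov, D120 over D30). For misrii in MT_Fe_Ov over WT_Fe_Ov at D120 it was −0.22 to 0.27. The log2 ratio of gsdf to amh had −2.98 to −2.41 (D30 ovaries minus testes) and −1.14 to 0.28 (MT_Fe_Ov, D120 minus D30).

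Counts of all genes called at D10 depended on the tool. In all ovaries over testes edgeR called 63, DESeq2 1467 and the fit of 27 libraries 1650. In MT_Fe_Ov over WT_Ma_Te the counts were 27, 1017 and 2252, in WT_Fe_Ov over WT_Ma_Te 2, 168 and 488, and in MT_Fe_Ov over WT_Fe_Ov 92, 415 and 15. MT_Fe_Ov over WT_Fe_Ov gave 401, 719 and 675 (D30) and 25, 121 and 49 (D120). The replicate block gave 83, 103 and 4 genes at D10 (WT_Fe_Ov and MT_Fe_Ov over WT_Ma_Te, MT_Fe_Ov over WT_Fe_Ov) and 112 at D120 (MT_Fe_Ov over WT_Fe_Ov). At D30 all ovaries over testes had 5573 genes higher and 9241 lower with TMM, and 2503 and 13204 with library totals. At D10 gsdf and amh rested on under 300 counts a library, and the part of depth in their spread was not tested.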
